A study of Homo sapiens with 4 samples.

Results

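The receptors for TRAIL and tumour necrosis factor (TNF) described here are TNFRSF10A, TNFRSF10B, TNFRSF10D, TNFRSF1A, TNFRSF12A and TNFRSF21, and the 6 genes held 4 of the 9107 HNRNPC peaks and 28 of the 63507 PABPC4 peaks that were mapped in MDA-MB-231 cells. A peak was counted for a receptor when the list gave that receptor's NCBI Gene ID, and each position was counted once. The genes were selected on measured values of these same lists, above all on a very tall HNRNPC peak in the 3′ UTR of TNFRSF10B. Their counts and heights are therefore a description, and no test was made of them.

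MDA-MB-231 is an established human breast cancer cell line. The labels give no change of genotype and no drug, the same for all samples. The cells were irradiated with ultraviolet light for cross-linking and immunoprecipitation (CLIP), which recovers RNA fragments, sequenced as tags, that were in contact with a protein. There were 2 samples with an antibody to HNRNPC and 2 with an antibody to PABPC4, the latter made by PAPERCLIP, in which the tags come from mRNA 3′ ends next to the poly(A) tail. The 2 samples of a protein had been pooled into 1 list, with no untreated or mock precipitation list used here, so no value has a spread between replicates. The height of a peak is the number of unique pooled tags at its summit. It was not scaled to depth or to the amount of the mRNA, so a height reflects both binding and abundance, and heights of HNRNPC and PABPC4 were not compared with each other. Intervals are 95% Poisson intervals for heights and 95% Wilson intervals for shares, and cover counting error only.

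TRAIL receptors sit at the cell surface, where binding of their ligand clusters them and assembles a complex with the adaptor FADD that activates caspase-8 and can kill the cell. TNFRSF10A (DR4) and TNFRSF10B (DR5) carry a complete death domain, while TNFRSF10D (DcR2) has a truncated one and acts as a decoy. TNFRSF1A is the main receptor for TNF and signals to NF-κB or to death. TNFRSF12A (Fn14) is the receptor for TWEAK and recruits TRAF adaptors, and TNFRSF21 (DR6) is a death-domain receptor known from neurons and lymphocytes. HNRNPC is a mostly nuclear protein that binds uridine runs in pre-mRNA, many of them in introns and antisense Alu repeats. PABPC4 is a poly(A)-binding protein that moves between cytoplasm and nucleus.

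TNFRSF10B, TNFRSF10D, TNFRSF1A and TNFRSF21 each held 1 HNRNPC peak, and TNFRSF10A and TNFRSF12A held none. Over all 20056 protein-coding genes, 19.0% had an HNRNPC peak, beside 4 of the 6 receptors, a count that the choice of the genes helped to set. The 3′ edges of the TNFRSF1A and TNFRSF21 peaks, and the bases that follow, are shown because the motifs described below lie there. They are written as DNA 5′ to 3′ on the RNA's own strand, minus in both genes, from the hg38 genome. The edge is the last 30 nt of the peak, at chr12:6331512-6331541 for TNFRSF1A and chr6:47239390-47239419 for TNFRSF21. The flank is nt 11 to 40 after the peak, at chr12:6331472-6331501 and chr6:47239350-47239379. Capitals mark runs of at least 5 T (U in RNA) in the flanks and GTGTCA in the TNFRSF21 edge.

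TNFRSF1A edge: acatggaagatctgctagttctacagggtg
TNFRSF21 edge: aatactgcaacctccaccagtGTGTCAtct
TNFRSF1A flank: gccccagtaacatgtgTTTTTaaaTTTTTc
TNFRSF21 flank: cagtcaacagggaagtgaTTTTTcagtttg

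The 3′ edges of the PABPC4 peaks are shown next because they carry, or lack, the poly(A) signal that normally lies just upstream of the cleavage site. Each line is the last 30 nt of the 3′ UTR peak. Capitals mark AATAAA in TNFRSF12A (chr16:3022352-3022381, plus strand) and TNFRSF21 (chr6:47231537-47231566, minus strand). In TNFRSF1A (chr12:6328765-6328794, minus strand) they mark ACTAAA, which differs from the signal by 1 base.

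TNFRSF12A: aatttattAATAAAagaatctttaacttta
TNFRSF21: gtactaatttattAATAAAcattaggtgtt
TNFRSF1A: atacACTAAAattctgaagttaaagctctg

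The TNFRSF10B HNRNPC peak was 196 tags high (170 to 225) and lay in the last exon, exon 9, on chromosome 8 at 23020732 to 23020999 of hg38 on the minus strand. It ranked 9 of all 9107 HNRNPC peaks by height. Among the 452 HNRNPC peaks in 3′ UTRs it ranked 1, and the next were in HYOU1 at 154 tags and EHMT1 at 134 tags. The median HNRNPC peak was 11 tags high (quartiles 8 and 17), and so was the median in 3′ UTRs (quartiles 8 and 16). The list gave an expected height of 0.50 tags for TNFRSF10B and a p-value of 1e-100 for the peak. Ranked by height over expected height, it came to place 515. At 268 nt the peak was also broad, and 97.5% of the list was narrower.

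That peak was the sole HNRNPC peak of TNFRSF10B. The gene, 48899 nt long with 9 exons, had 0 HNRNPC peaks in its introns. Of all HNRNPC peaks 85.5% were intronic. Only 19.0% of protein-coding genes had any HNRNPC peak, so most genes lack an intronic one. How many of the genes with an HNRNPC peak lack one in their introns is not given here. Across the list 4.96% of HNRNPC peaks lay in 3′ UTRs, and of the 4 receptor peaks 1 did. An HNRNPC 3′ UTR peak was present in 1.98% of protein-coding genes and in 1 of the 6 receptors, which is the gene they were chosen around.

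Within the 2538 nt TNFRSF10B 3′ UTR, the peak began 1671 nt after the stop codon and ended 1939 nt after it. From there the annotated 3′ end was 599 nt away and the PABPC4 peak 521 nt away. For the 428 HNRNPC 3′ UTR peaks whose gene also had a PABPC4 3′ UTR peak, the median distance between the closest pair was 609 nt (quartiles 215 and 1686.5 nt). The PABPC4 peak was the downstream partner in 280 of them, upstream in 114 and overlapping in 34. The TNFRSF10B distance lay between the quartiles of the list. Both kinds of 3′ UTR peak occurred together in 1.85% of protein-coding genes and in 1 of the 6 receptors.

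The TNFRSF10B peak contained no UUUUU, and its longest U run was 4. By composition it was 28.4% U, 27.2% G, 30.6% C and 13.8% A. A U-rich stretch followed it: the first UUUUU came 15 nt after the last base of the peak, and the longest run in the next 100 nt was 7 U. A sequence resembling the antisense of 7SL RNA, the ancestor of Alu repeats, started 41 nt after the peak, with segments of 38 nt at 81.6% identity, 76 nt at 85.5% and 33 nt at 84.8%. The peak itself held no such match.

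The other HNRNPC peaks were lower. The TNFRSF10D peak, in intron 1 on chromosome 8 at 23161094 to 23161333, was 30 tags high (20.2 to 42.8), had a p-value of 8.78e-10 and ranked 854. In TNFRSF1A the peak at chr12:6331512-6331633 was 15 tags high (8.4 to 24.7) and ranked 2685. It lay in intron 5 of the canonical transcript and was counted as non-coding exon because it also lay in an exon of another transcript on that strand. The TNFRSF21 peak, in intron 4, was also 15 tags high (8.4 to 24.7). All 3 were above the list median, although the lower ends of the intervals of the last pair were not.

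None of the 4 receptor peaks had UUUUU inside, beside 13.3% of all HNRNPC peaks, nor in the 50 nt upstream, beside 30.5%. With 4 peaks, a count of 0 leaves a Wilson interval that reaches 49.0%. In the 50 nt downstream, TNFRSF10B, TNFRSF1A and TNFRSF21 had UUUUU, at 15, 26 and 28 nt from the end of the peak. This was 3 of 4 (interval 30.1 to 95.4%) beside 28.1% of all HNRNPC peaks. TNFRSF10D had no UUUUU within 100 nt on either side. A match to antisense 7SL within 100 nt of the peak was found in 1 of the 4, TNFRSF10B, beside 32.8% of the list.

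The letters GUGUCA, searched on the peak's own strand after the data had been seen, stood in the last 20 nt of 3 of the 4 receptor peaks, beside 23.3% of all HNRNPC peaks. They began 10 nt before the end in TNFRSF10B, 10 nt in TNFRSF10D and 9 nt in TNFRSF21, as the capitals in the printed sequence show, and were absent in TNFRSF1A. The place of the letters was thus nearly the same in the 3 peaks. Over the list, peaks with GUGUCA there had a median height of 15 tags and peaks without it 10, and 4 of the 9 tallest had it. Among HNRNPC 3′ UTR peaks 83 had it, and the tallest without it reached 134 tags. The letters were not compared with the linker and primer sequences of the libraries, so how much of the 196 tags and rank 9 of TNFRSF10B came from HNRNPC binding, and how much from a possible preference of the library preparation for this sequence, cannot be told apart here.

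TRAIL receptor genes lie side by side on chromosome 8 and are alike in sequence. The TNFRSF10B peak aligned along all 268 nt with the 3′ UTR of TNFRSF10D at 87.7% identity, with 33 mismatched or missing bases and no exact run over 32 nt. The TNFRSF10D copy, at 23135776 to 23136040, held 0 HNRNPC peaks. It lacked GUGUCA in its last 20 nt and UUUUU in the 50 nt after it. The TNFRSF10D intron peak in turn aligned over 239 nt with an intron of TNFRSF10C, a decoy receptor outside the 6 genes, at 91.6% identity with exact runs of up to 45 nt. That intron held GUGUCA at the same edge and 0 HNRNPC peaks. How tags that fit both copies equally well were treated is not given in the sources used here, so the division of tags between the copies is uncertain.

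**Figure D1:**
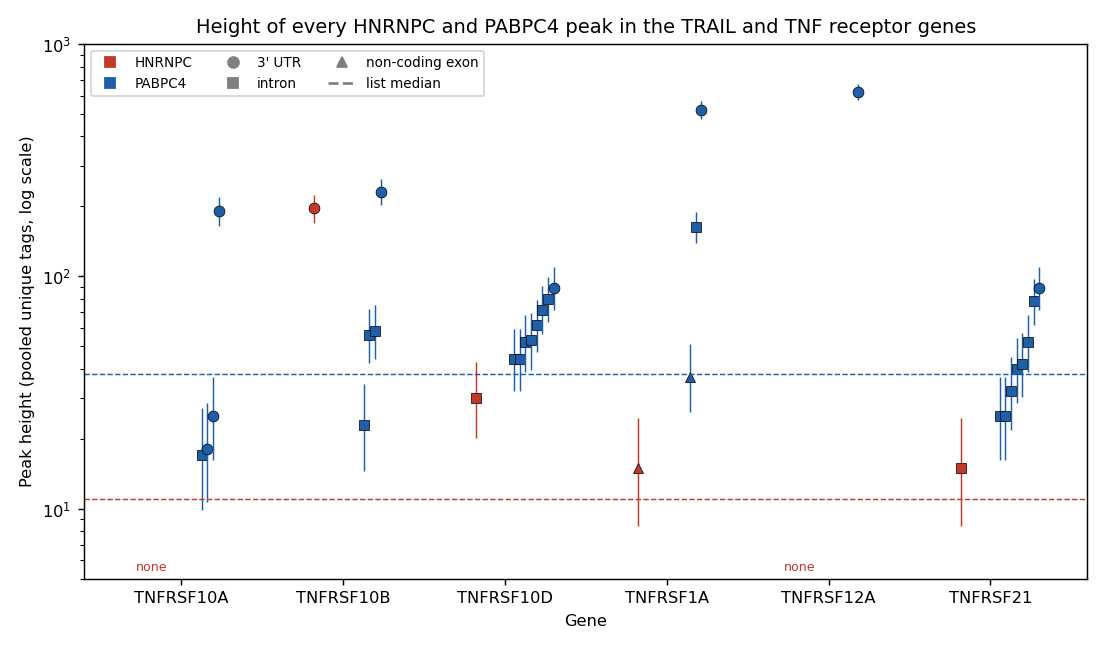
Height of each peak in the 6 receptor genes, in pooled unique tags on a log axis, with 95% Poisson intervals for counting error as vertical lines; red marks HNRNPC and blue PABPC4, circles 3′ UTR, squares intron and triangles non-coding exon peaks. Dashed lines give the list medians of 11 and 38 tags, and the 196-tag HNRNPC peak of TNFRSF10B stands apart from the HNRNPC peaks of 15 to 30 tags in the other genes.

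All 6 receptors held PABPC4 peaks, beside 59.2% of protein-coding genes, and all 6 held one in the 3′ UTR, beside 48.7%. The choice of the genes helped to set these counts as well. The 28 peaks comprised 8 in 3′ UTRs, 19 in introns and 1 in a non-coding exon. The 3′ UTR share was 28.6% (15.3 to 47.1%), beside 29.7% of the whole PABPC4 list. The share of the 6 genes was close to that of the list, while the genes differed widely among themselves.

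The tallest PABPC4 peak of the group was that of TNFRSF12A, the TWEAK receptor, with 620 tags (572 to 671) at chr16:3022329-3022381. It ranked 386 of 63507 peaks and 323 of the 18889 in 3′ UTRs. TNFRSF1A followed with 521 tags (477 to 568) at chr12:6328765-6328945, rank 511. The intervals of these 2 peaks did not overlap. Both exceeded the upper quartile of PABPC4 3′ UTR peaks, 93 tags (median 45).

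Among the TRAIL receptors, TNFRSF10B had a 3′ UTR peak of 231 tags (202 to 263), at 23020136 to 23020210 of chromosome 8, and TNFRSF10A had one of 191 tags (165 to 220), at 23191103 to 23191140. The intervals of this pair overlap. The decoy receptor TNFRSF10D had 89 tags (71.5 to 110), at 23135592 to 23135645, and TNFRSF21 had the same height at chr6:47231537-47231608. In order of height the genes were thus TNFRSF12A, TNFRSF1A, then TNFRSF10B and TNFRSF10A, then TNFRSF10D and TNFRSF21. The intervals overlap inside each of the last pairs, which does not show that the underlying heights are the same. The list's expected heights were 8.17 for TNFRSF12A, 2.37 for TNFRSF1A and 0.21 to 0.76 for the other genes. Gene abundance was not measured in these lists, so its part in this order was not tested.

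In 5 of the 6 genes the 3′ UTR peak ended at the annotated end of the canonical transcript. It stopped 2 nt before that end in TNFRSF12A, 3 nt in TNFRSF10B, 4 nt in TNFRSF10D and 5 nt in TNFRSF21, and ran 6 nt past it in TNFRSF1A. Counted over all 8 receptor 3′ UTR peaks, 5 lay within 50 nt of an annotated end of the same gene, beside 54.5% of PABPC4 3′ UTR peaks. They ended 6 nt or less from the annotated position, while the heights of these 5 peaks ranged from 89 to 620 tags.

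**Figure D2:**
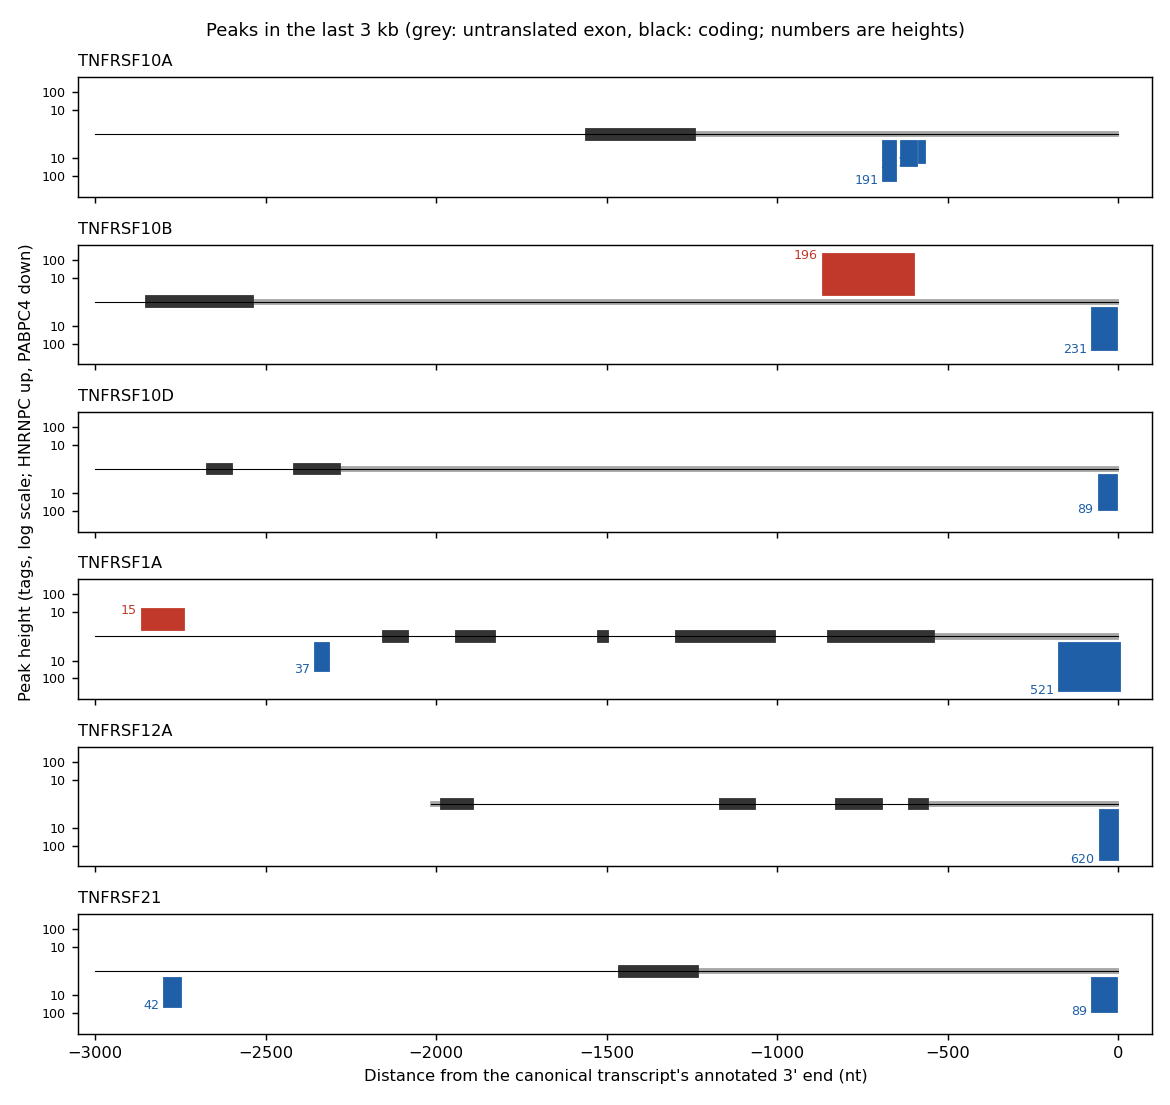
Peaks in the last 3 kb of each canonical transcript, plotted by distance in nt from its annotated 3′ end, with coding exons black and untranslated exons grey; bar width is peak width and bar length is height in tags on a log axis, HNRNPC up and PABPC4 down. The blue peaks of TNFRSF10B, TNFRSF10D, TNFRSF1A, TNFRSF12A and TNFRSF21 sit at 0, those of TNFRSF10A (191, 25 and 18 tags) lie well before it, and the red TNFRSF10B peak ends 599 nt before it.

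A poly(A) signal, AAUAAA or AUUAAA, was present in the last 40 nt of 4 of the 8 receptor peaks, beside 47.1% of PABPC4 3′ UTR peaks. The first base of AAUAAA stood 22 nt before the peak's end in TNFRSF12A and 17 nt before it in TNFRSF21, as printed above. TNFRSF10D had AAUAAA at 23 nt and AUUAAA at 4 nt. TNFRSF10B had AUUAAA at 23 nt, which was the sole signal in its whole 3′ UTR. It lay 574 nt after the end of the HNRNPC peak, so the lists and the annotation placed 1 PABPC4 peak and 1 signal downstream of HNRNPC in this gene and none upstream in the 3′ UTR. The TNFRSF1A peak had neither signal, and its ACUAAA began 26 nt before the end.

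TNFRSF10A was the exception among the 6. Its 3′ UTR is 1242 nt long, and its 191-tag peak ended 651 nt before the canonical end and 546 nt from the nearest annotated end of any transcript. The last 40 nt held neither signal and no variant of AAUAAA with 1 changed base. Smaller 3′ UTR peaks of TNFRSF10A followed it, of 25 tags (16.2 to 37) at 23191043 to 23191089 and 18 tags at 23191018 to 23191037. An A-rich stretch, meaning a run of 6 A or at least 7 A among 10 nt, began 22 nt after the first of them, 1 nt after the second and 82 nt after the 191-tag peak. By position these starts fall in the same stretch. No PABPC4 peak was listed at the annotated end of TNFRSF10A. Over all 8 receptor 3′ UTR peaks, 2 had an A-rich stretch within 50 nt downstream, beside 32.0% of PABPC4 3′ UTR peaks. Both were in TNFRSF10A and preceded the same stretch, so they are not separate sites.

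Peaks in introns divided the genes differently. As a share of summed PABPC4 height, the 3′ UTR held 100% (99.4 to 100%) of 620 tags in TNFRSF12A, 93.2% (89.4 to 95.7%) of 251 in TNFRSF10A, 72.3% (68.9 to 75.4%) of 721 in TNFRSF1A and 62.8% (57.7 to 67.6%) of 368 in TNFRSF10B. It held 23.2% (19.3 to 27.7%) of 383 tags in TNFRSF21 and 17.9% (14.8 to 21.6%) of 496 in TNFRSF10D. Over the whole list the share was 45.9%. TNFRSF21 and TNFRSF10D were below it and the other 4 genes above. The genes span from 3939 nt in TNFRSF12A to 78374 nt in TNFRSF21, so their room for intron peaks differs. TNFRSF10D, at 28440 nt, is shorter than TNFRSF10A, at 34651 nt. The part of gene length in these shares was not tested. In TNFRSF10D, 7 intron peaks ranged from 44 to 80 tags beside the 3′ UTR peak of 89, and in TNFRSF21, 7 ranged from 25 to 78 beside 89.

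An A-rich stretch followed 15 of the 19 receptor intron peaks within 50 nt (78.9%, 56.7 to 91.5%), beside 71.2% of all PABPC4 intron peaks. A sense 7SL match, as in a sense Alu with its A-rich tail, lay at 11 of the 19 (57.9%, 36.3 to 76.9%), beside 53.1%. With the A-rich stretch required within 20 nt, 9 of the 19 had one (47.4%), beside 52.7% of the list. These shares of the receptors were near those of the list. The tallest was the 163-tag peak (139 tags at the lower bound) of TNFRSF1A in intron 1 at chr12:6338598-6338642. The 30 nt that follow it, at chr12:6338568-6338597, are shown because they hold an A run, here in capitals. They are read from hg38 on the minus strand.

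TNFRSF1A, after 163 tags: AAAAAAAAAAAAAAAAAAgtagtgaggcat

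Genomic A runs are a place where a primer for poly(A) can also start, and the lists do not separate such tags from those of true 3′ ends. Whether it contributed to these intron peaks was not tested. In TNFRSF10B the intron peaks were 58 and 56 tags high in intron 1 and 23 in intron 7. TNFRSF10A had 1 intron peak of 17 tags, and TNFRSF12A had none. The remaining peak was one of 37 tags (26.1 at the lower bound) in TNFRSF1A at chr12:6331086-6331125, inside intron 5 of the canonical transcript and an exon of another transcript on that strand. It carried AUUAAA 19 nt before its end, with an A-rich stretch after it. It was the PABPC4 peak nearest to the TNFRSF1A HNRNPC peak, 386 nt downstream. The nearest PABPC4 peak was 5061 nt downstream of the HNRNPC peak in TNFRSF21, and 1783 nt upstream of it in TNFRSF10D.

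Several of the intron peaks on chromosome 8 are uncertain in their gene. The 53-tag peak of TNFRSF10D differed from TNFRSF10C by 1 base, and the 72-tag peak and one of the 44-tag peaks differed from it by 2. The other 44-tag peak differed from TNFRSF10A by 2 bases, and the 56-tag peak of TNFRSF10B differed from TNFRSF10C by 3. The 3′ UTR peaks of TNFRSF10B and TNFRSF10D shared an aligned stretch of 29 nt, with 2 mismatches, and could be told apart over the rest of their length.

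**Figure D3:**
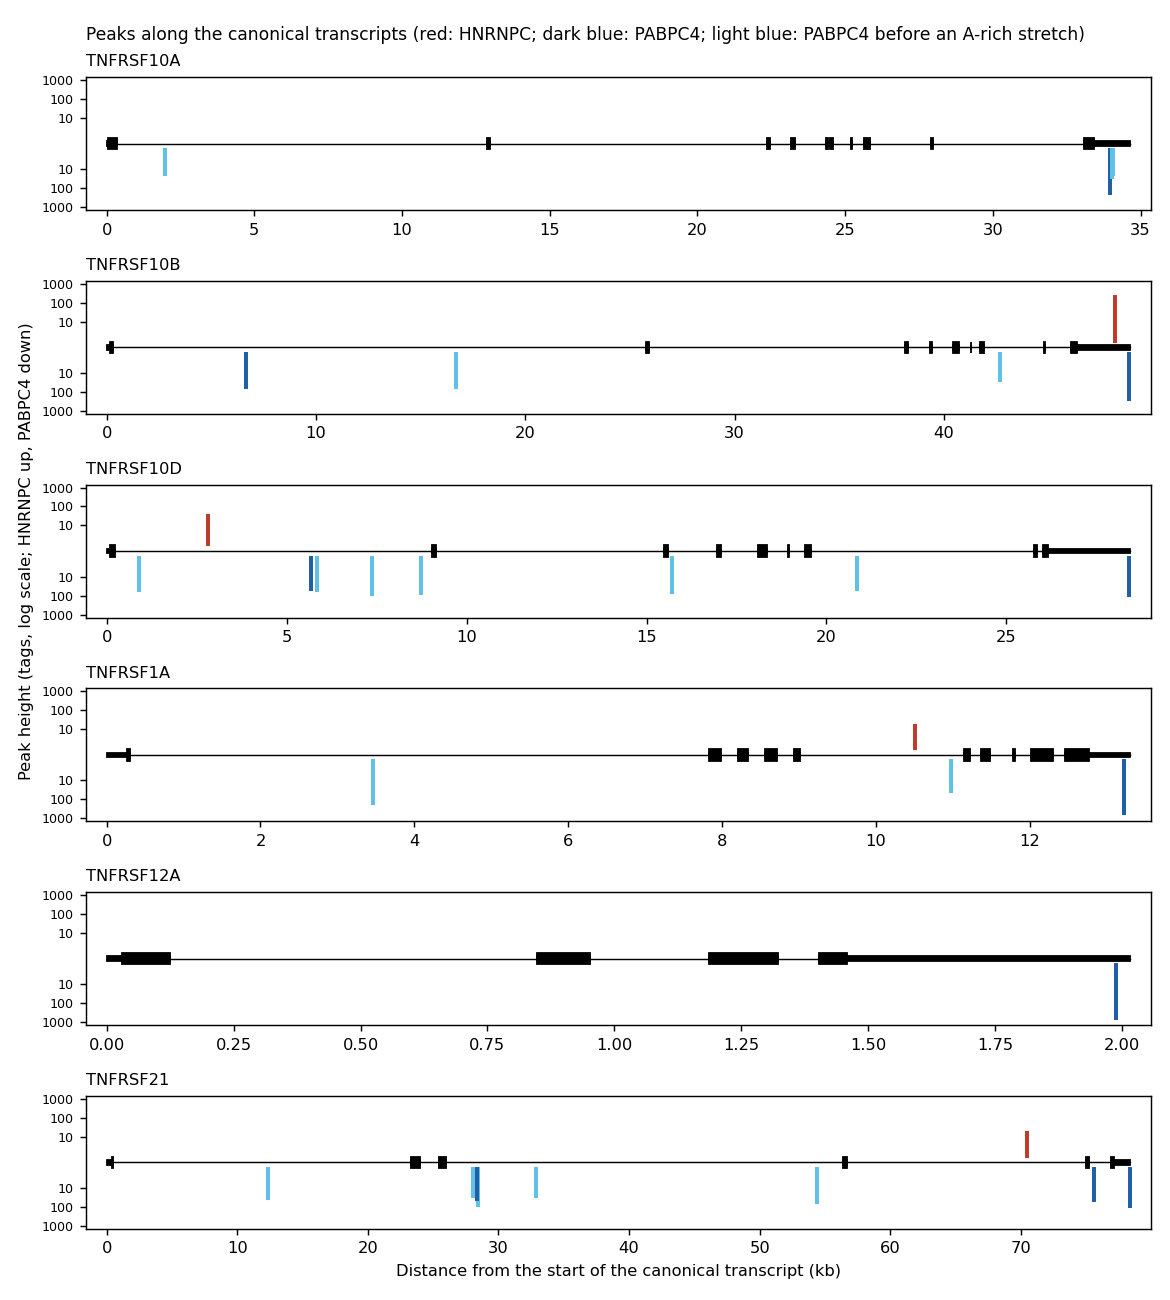
Positions of all receptor peaks along the canonical transcript of each receptor gene, in kb from its start, with exons as black boxes (coding parts taller); bars up are HNRNPC and bars down PABPC4, with length as height in tags on a log axis and light blue where an A-rich stretch follows within 50 nt. The red TNFRSF10B bar lies in the last exon, and the PABPC4 bars of TNFRSF10D and TNFRSF21 spread over their introns.

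The other genes of the pathway were taken from 3 lists drawn up from general knowledge: 23 other receptors of the family, 18 ligands and 42 genes of death and NF-κB signalling. HNRNPC peaks were found in 1 of the 23 receptors (4.35%), 1 of the 18 ligands (5.56%) and 9 of the 42 signalling genes (21.4%), beside the 19.0% of all protein-coding genes given above. The 23 are the receptors left once the 6 genes, chosen on these same lists, were taken out. Their share is therefore set in part by that choice and is not a result about the family. The receptor was RELT, with 19 tags in an intron, and the ligand was EDA, with 6 tags. Among signalling genes the tallest were in IKBKB, a kinase that activates NF-κB, at 109 tags in an intron, and in TRAF2, an adaptor of TNF receptors, at 77 tags in the 5′ UTR, followed by TRAF3, another adaptor, at 19 tags in an intron. An HNRNPC 3′ UTR peak occurred in 0 of the 23 receptors, 0 of the 18 ligands and 1 of the 42 signalling genes, namely BAX, which permeabilises mitochondria, at 16 tags. That was the sole HNRNPC 3′ UTR peak in the 83 genes. Over all protein-coding genes 1.98% had one, so such peaks were rare in both.

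PABPC4 3′ UTR peaks were found in 6 of the 23 other receptors (26.1%), 4 of the 18 ligands (22.2%) and 34 of the 42 signalling genes (81.0%), beside 48.7% of protein-coding genes. The share of the other receptors is again set in part by the removal of the 6 chosen genes. Counting peaks at or above the list median alone, the pathway genes with a PABPC4 3′ UTR peak fell from 44 to 23 of 83 and those with an HNRNPC peak from 11 to 6. Such a cut removes peaks from genes of all kinds. The share of all protein-coding genes under it is not given here, so the fall is not a result about the pathway. The tallest among receptors was LTBR, the lymphotoxin β receptor, at 311 tags, between TNFRSF1A and TNFRSF10B. TNFRSF11A, the receptor RANK, had 38 tags and FAS, another death receptor, had 23. Of the ligands, TNFSF12 (TWEAK), which binds TNFRSF12A, had 63 tags, and TNFSF10 (TRAIL), which binds TNFRSF10A, TNFRSF10B and TNFRSF10D, had 53. TNFSF13B, a survival factor of B cells, had 32. Of the signalling genes, XIAP, a caspase inhibitor, had 453 tags, and NFKBIA, the inhibitor of NF-κB, had 309. BAX, with the HNRNPC peak named above, had 277. The lists hold peaks and not expression, so a gene without binding and a gene too little expressed cannot be told apart.

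**Figure D4:**
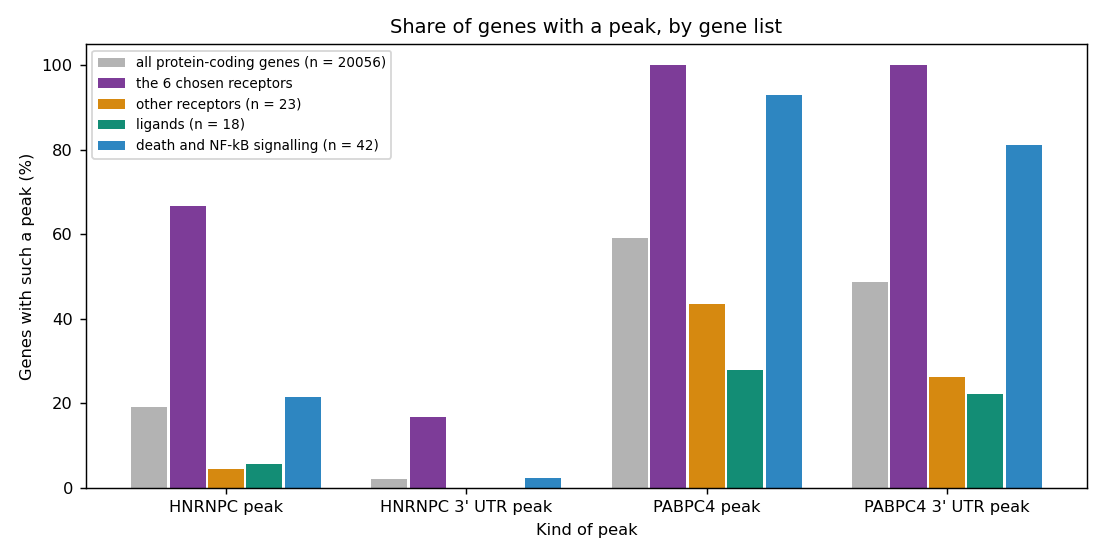
Percent of genes with each of 4 kinds of peak among all 20056 protein-coding genes (grey), the 6 chosen receptors (purple) and the 3 other pathway lists; n is given in the key. The bars of the chosen receptors reflect in part how they were chosen. So do the bars of the other receptors, since the chosen genes had been taken out of that family. With that limit, the other receptors and the ligands lie below all protein-coding genes in each kind of peak. For HNRNPC 3′ UTR peaks the share of all genes is itself only 1.98%.

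The genes whose 4 sums of heights were most like those of TNFRSF10B (HNRNPC in introns 0, HNRNPC in the 3′ UTR 196, PABPC4 in introns 137 and PABPC4 in the 3′ UTR 231) were sought among 11772 genes, by Euclidean distance on the log2(1 + sum) scale. They were CYBA at a distance of 1.89, MDM4 at 2.11, ZNF8 at 2.26, TOR1AIP2 at 2.38 and MPZL1 at 2.55. Their HNRNPC 3′ UTR sums were 64 in CYBA, 47 in MDM4, 54 in ZNF8, 39 in TOR1AIP2 and 35 in MPZL1. That these genes lay below TNFRSF10B was largely set by its choice for a very tall 3′ UTR peak. Their PABPC4 3′ UTR sums were closer to that of TNFRSF10B, from 208 in MPZL1 to 296 in TOR1AIP2.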

How the data were processed

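HNRNPC CLIP and PABPC4 PAPERCLIP peaks of MDA-MB-231 cells were used, with 2 samples per protein grouped by antibody. The labels and methods name irCLIP for HNRNPC, while the deposited list is named for HITS-CLIP, and which applies was not settled. The authors collapsed HNRNPC reads by molecular identifier, extracted the identifier (UMI-tools), trimmed the reads (cutadapt), aligned them to hg38 (BWA 0.7.17, per the submitters' processing notes) before calling peaks on the pooled tags (CLIP Tool Kit). PABPC4 processing was not described separately. The deposited signal is the peak height in tags, with an expected height and a p-value by the authors. Library depth is unknown.

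Each position was counted once, after removing 1281 and 6271 surplus entries, and placed by its centre on its own strand with GENCODE 44. The order was 3′ UTR, CDS, 5′ UTR, non-coding exon and intron. UTRs and CDS came from protein-coding transcripts. Non-coding exon means an exon of any transcript outside those parts, and intron the rest of any gene. Overlaps used bedtools 2.31.1. 7SL matches (100 nt on each side, E-value limit 1e-05) and receptor copies used blastn 2.17.0. Motif and placement steps were tested on simulated data. Genes, lists, motifs and windows were chosen with earlier results of these data known. The peaks named were each receptor's tallest and all in 3′ UTRs, with further intron peaks named after their values were seen. From each pathway list the 3 genes with the tallest HNRNPC peak, where as many had one, the 3 genes tallest for PABPC4 in the 3′ UTR and any with an HNRNPC 3′ UTR peak were named. Alternatives covered stricter p-values, taller peaks, all entries and other windows. The sequence after one TNFRSF21 intron peak is not reported here.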

Additional observations from a re-analysis of the deposited data

How the results depend on the processing

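The counts, the rank and the share of TNFRSF10B PABPC4 3′ UTR height in its tallest peak were recalculated under 45 alternatives. Of these, 40 stayed within 1.5 times of the values given, but several could not move. All receptor peaks passed the stricter p-value limit, and TNFRSF10B had 1 PABPC4 3′ UTR peak, which fixed its share at 100%. At heights at or above the list median, receptor PABPC4 peaks fell from 28 to 20, still within 1.5 times. Those in 3′ UTRs fell from 8 to 6. Ranked by height over expected height, the TNFRSF10B HNRNPC peak moved from 9 to 515. With an A-rich stretch required within 20 nt, the receptor intron peaks before one went from 15 to 9. With 4 U in a row in place of 5, the receptor HNRNPC peaks with a U run went from 0 to 2. The share of all HNRNPC peaks with 4 U in a row is not given here, so that count has no comparison. At heights at or above the list median, pathway genes with an HNRNPC peak went from 11 to 6 of 83, and those with a PABPC4 3′ UTR peak from 44 to 23. The shares of all protein-coding genes at that height are not given here. No paired analysis was possible because each list merges its 2 samples, and for the same reason no sample could be left out. With unknown library depth, a gene without a peak cannot be told from one below detection.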
